A study of Mus musculus with 24 samples.

Results

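The 9 genes described here, Kcnd2, Kcnd3, Kcnip2, Kcna5, Kcnv2, Kcnh2, Kcnj2, Kcnj3 and Kcnj11, encode pore-forming or accessory subunits of the potassium channels that repolarise heart muscle cells. They were listed by gene symbol, with earlier results of these data known, and are 9 of the 40840 rows of the deposited count table. All 9 passed the filter on low counts and are among the 15027 genes tested. The RNA was taken from the cardiac apex of mice, wild type on the C57/Bl6J background, killed 3 days after surgery. In transverse aortic constriction (TAC) a suture was tied around the aorta and a blunt 25-G needle, between the innominate and left common carotid arteries, which raises the pressure against which the left ventricle pumps. The 4 groups, each of 6 mice, were TAC in hypoxia, sham surgery in hypoxia, TAC in normoxia and sham surgery in normoxia. The labels used here give no oxygen level, age, sex, hour of killing or batch, and the part of any of these in the results was not tested. They do not state for each library that it came from a mouse of its own, so p-values measure the spread between these libraries.

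Action potentials of mouse ventricle are short because a large, fast transient outward potassium current repolarises the membrane early. That current flows through Kv4 channels, whose pores are built from Kcnd2 (Kv4.2) and Kcnd3 (Kv4.3) with the calcium-binding accessory subunit Kcnip2 (KChIP2). Kcna5 (Kv1.5) and Kv2 channels carry slower outward currents, and Kcnv2 (Kv8.2) makes no channel of its own but joins Kv2 subunits and alters them. Kcnh2 (ERG1) carries the rapid delayed rectifier current, which is large in human ventricle and small in adult mouse ventricle. Among inward rectifiers, Kcnj2 (Kir2.1) holds the resting potential, Kcnj3 (GIRK1) opens on muscarinic signalling, and Kcnj11 (Kir6.2) is the pore of the ATP-sensitive channel. Lower transcript levels of several of these genes are a known feature of hypertrophied and failing hearts.

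Library totals lay between 10136915 and 15058159 counts. Levels are given as CPM (a gene's counts scaled to library size) after TMM scaling, a correction for differences in RNA composition between libraries. A gene was called changed at an adjusted p under 0.05 in edgeR's quasi-likelihood test, fitted to all 24 libraries, with Benjamini-Hochberg adjustment over all 15027 genes. Every adjusted p below is from that test unless another is named. The summed level of 14 cardiomyocyte markers ranged from 71933 to 102450 CPM after hypoxia TAC, 88120 to 93605 CPM after hypoxia sham, 46022 to 97952 CPM after normoxia TAC and 86526 to 95982 CPM after normoxia sham. The atrial marker Bmp10 was at 0 in all 24 libraries, and the atrial markers Sln and Myl7 reached at most 0.969 and 0.447 CPM. Of the other atrial markers, Myl4 ranged from 6.73 to 10.8 CPM after hypoxia TAC, 4.73 to 6.09 CPM after hypoxia sham, 5.89 to 12.3 CPM after normoxia TAC and 4.19 to 5.59 CPM after normoxia sham, and Stard10 reached at most 3.13 CPM. Myl4 rose after TAC in both conditions, by 0.68 ± 0.16 log2 units in hypoxia (adjusted p = 0.0105) and 0.69 ± 0.16 in normoxia (adjusted p = 0.00294). The sum of the 5 atrial markers was 8.46 to 12.7 CPM after hypoxia TAC, 5.93 to 8.24 CPM after hypoxia sham, 8.58 to 14.3 CPM after normoxia TAC and 6.98 to 8.45 CPM after normoxia sham. Its part in the channel results was not tested. In bulk tissue, fewer cells of a type and less RNA per cell cannot be told apart.

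Promoter sequences are shown for Kcnh2, Kcnj2 and Kcnip2. In mouse heart the circadian clock has been reported to control Kcnh2, and the factor Klf15 to control Kcnip2. The Kcnj2 window holds both motifs searched. Each runs 5′ to 3′ from 250 bases before to 50 bases after the gene's start in RefSeq on GRCm38.p6, an older build than the GRCm39 named for the counts. Capitals mark matches to CACGTG, the E-box read by the clock factors Clock and Arntl, or to CCNCNCCC, a motif bound by Kruppel-like factors, on either strand. Overlapping matches run together. Kcnh2 lies at chr5:24329542-24329841 on the minus strand, Kcnj2 at chr11:111065914-111066213 on the plus strand and Kcnip2 at chr19:45816014-45816313 on the minus strand.
Kcnh2: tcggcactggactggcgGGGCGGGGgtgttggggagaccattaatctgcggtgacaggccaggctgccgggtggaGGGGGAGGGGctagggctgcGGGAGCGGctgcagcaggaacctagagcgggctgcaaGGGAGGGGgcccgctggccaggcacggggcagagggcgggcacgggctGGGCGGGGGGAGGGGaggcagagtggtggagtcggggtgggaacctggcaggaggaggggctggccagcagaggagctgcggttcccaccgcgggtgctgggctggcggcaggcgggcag
Kcnj2: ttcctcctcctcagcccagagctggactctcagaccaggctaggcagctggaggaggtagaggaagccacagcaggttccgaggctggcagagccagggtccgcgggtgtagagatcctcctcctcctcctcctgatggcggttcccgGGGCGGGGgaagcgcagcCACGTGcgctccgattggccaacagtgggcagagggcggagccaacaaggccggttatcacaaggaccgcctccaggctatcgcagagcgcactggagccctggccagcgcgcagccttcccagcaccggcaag
Kcnip2: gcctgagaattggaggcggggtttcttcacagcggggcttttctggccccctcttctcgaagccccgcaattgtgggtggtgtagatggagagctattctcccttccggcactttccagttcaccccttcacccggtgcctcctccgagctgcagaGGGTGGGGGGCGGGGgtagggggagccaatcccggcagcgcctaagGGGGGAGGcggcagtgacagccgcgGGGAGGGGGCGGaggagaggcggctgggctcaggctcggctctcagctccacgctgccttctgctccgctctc
The Kcnh2 window held 8 matches to CCNCNCCC and the Kcnip2 window 6, while that of Kcnj2 held 1 match to each motif. CACGTG was found in 7.15% and CCNCNCCC in 49.5% of all 32851 promoters of this length in the table. Of the 9 genes, 7 were in the table, without Kcnj11 and Kcnv2. Kcnj2 alone among these 7 held CACGTG. Kcnd3 held 3 matches to CCNCNCCC, Kcnd2 held 2, and Kcna5 and Kcnj3 held 1 each. A match describes the letters only and was not tested as a site.

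Per kilobase of exon, the 9 genes differed widely in level. Exon lengths were those of the GENCODE M21 annotation of GRCm38, which may differ from the annotation used for counting. In normoxia sham mice Kcnj11 had 16.8 ± 0.960 and Kcnip2 15.997 ± 0.969 CPM per kilobase (SD, n = 6 each). Kcna5 followed at 13.03 ± 2.78 and Kcnj3 at 11.7 ± 1.31 CPM per kilobase. The ranges of neighbours in this order overlapped, and the next gene, Kcnd2, lay below the range of Kcnj3 at 6.69 ± 1.01 CPM per kilobase. Kcnh2 had 4.22 ± 1.27, Kcnj2 3.69 ± 0.498 and Kcnv2 3.08 ± 0.378 CPM per kilobase, again with overlapping ranges. Kcnd3 was the lowest of the 9 at 0.649 ± 0.0953 CPM per kilobase, below its Kv4 partner Kcnd2 in every group. Kcna5 had the highest mean in the other 3 groups, with 20.1 ± 4.63 CPM per kilobase in hypoxia TAC, 18.95 ± 2.98 in hypoxia sham and 12.6 ± 1.93 in normoxia TAC mice. The next mean was 13.4 ± 3.04 (Kcnj11) in hypoxia TAC, 16.3 ± 1.38 (Kcnip2) in hypoxia sham and 11.8 ± 3.99 (Kcnj11) in normoxia TAC mice, with overlapping ranges in each group.

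**Figure D1:**
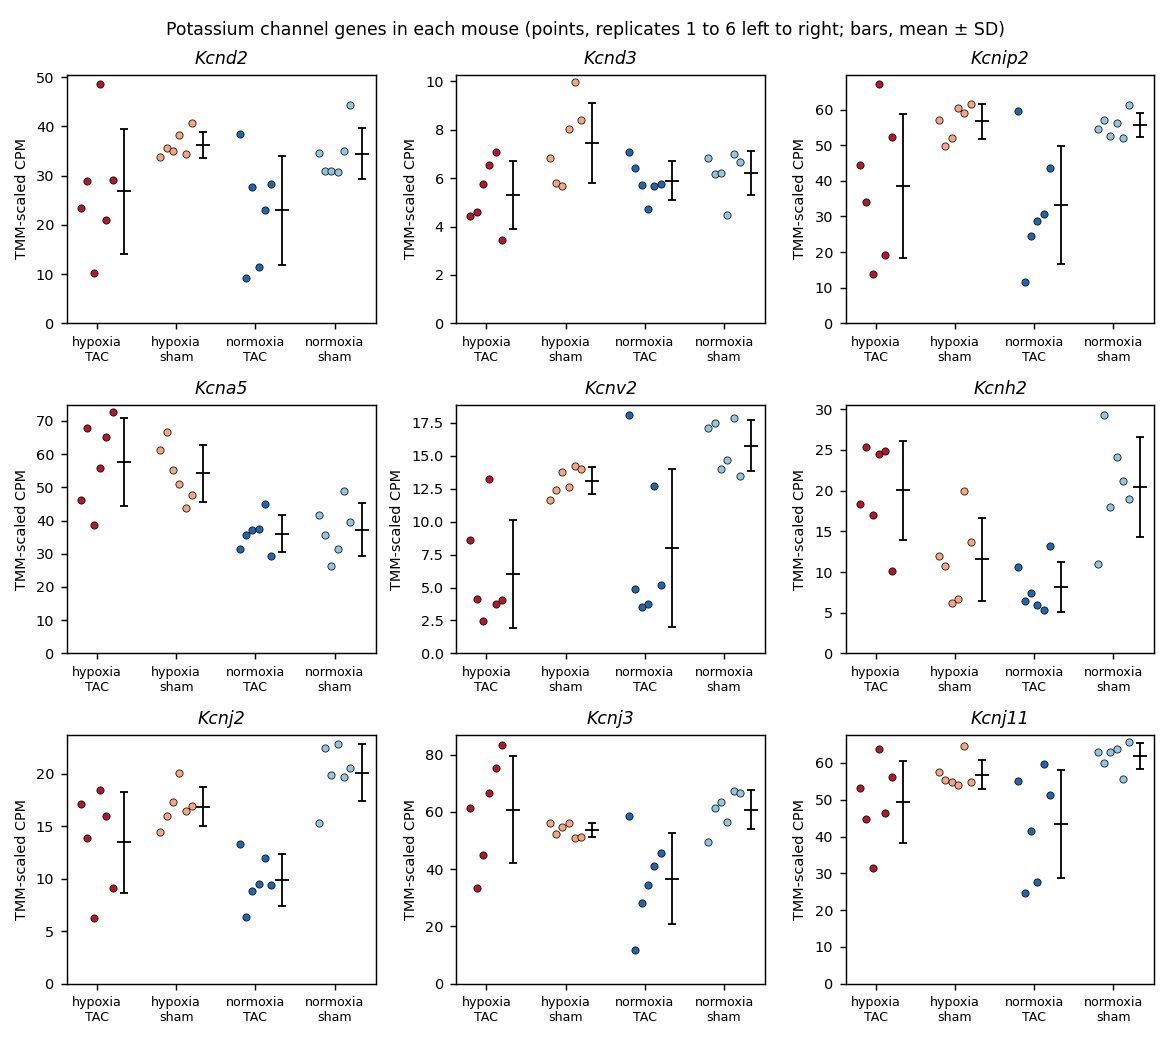
Level of each of the 9 potassium channel genes in TMM-scaled CPM (vertical axis) in each of the 24 mice, by group (horizontal axis), with the mean ± SD of 6 mice as bars. Kcnj2 in normoxia TAC mice lay between 6.34 and 13.3 CPM against 15.3 to 22.9 CPM in normoxia sham mice, and Kcnh2 in normoxia TAC mice had a median of 6.99 CPM against 20.1 CPM in normoxia sham mice.

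The first question is how TAC changed these genes in normoxia. Of the 9 genes, 5 fell (Kcnh2, Kcnj2, Kcnv2, Kcnj3 and Kcnj11) and none was called higher, where 10.6% of all genes tested were called lower and 16.8% higher. The log2 change was below 0 for all 9, except that Kcnd3 and Kcna5 stood at 0.08 each with libraries scaled to cardiomyocyte markers. The median over the 9 was -0.73, against 0.01 over all genes tested. All 5 calls were inward or delayed rectifier genes, but the classes did not separate by size of change. The Kv4 gene Kcnip2, not called, had -0.75, beyond the called Kcnj3 at -0.73 and Kcnj11 at -0.51. The delayed rectifier Kcna5, not called, had -0.05. Leaving out 1 library moved the count of 5 calls to 3 without normoxia sham mouse 5 or 6 or normoxia TAC mouse 2. It was 2 without normoxia TAC mouse 3 or 4. Kcnv2 alone was lost without normoxia sham mouse 1, 2, 3 or 4, normoxia TAC mouse 6 or any hypoxia sham mouse. The count rose to 7 without normoxia TAC mouse 1, with Kcnd2 and Kcnip2 gained. Kcnip2 was also gained without hypoxia TAC mouse 3. Kcnh2 and Kcnj2 were called in all 24 such fits.

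Among the Kv4 genes, Kcnip2 ranged from 11.6 to 59.6 CPM with a median of 29.7 in normoxia TAC mice, and from 52.1 to 61.2 CPM with a median of 55.3 in normoxia sham mice. Of the 6 TAC mice, 5 lay below every sham mouse. The log2 change was -0.75 ± 0.30 (SE) and did not pass (adjusted p = 0.0686). It passed without normoxia TAC mouse 1 (-1.002, adjusted p = 0.0135), the mouse with the highest value, or without hypoxia TAC mouse 3 (-0.76, adjusted p = 0.0365). It also passed with DESeq2 (adjusted p = 0.0479) and with limma voom (adjusted p = 0.0326), in a range of 0.0314 to 0.151 over 8 alternative settings.

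Kcnd2 ranged from 9.22 to 38.5 CPM with a median of 25.3 in normoxia TAC mice, and from 30.7 to 44.4 CPM with a median of 32.8 in normoxia sham mice. Again 5 of 6 TAC mice lay below every sham mouse, and the log2 change of -0.58 ± 0.29 did not pass (adjusted p = 0.130). Without normoxia TAC mouse 1 it was -0.79 and passed (adjusted p = 0.0354). Kcnd3, the less abundant Kv4 pore gene, had medians of 5.73 CPM in normoxia TAC mice (4.74 to 7.09) and 6.45 CPM in normoxia sham mice (4.48 to 6.98). Its groups overlapped almost entirely, with a log2 change of -0.07 ± 0.17 and an adjusted p of 0.788. Kcnd3 shares 165 exon bases with the antisense gene Kcnd3os, which had 76 counts in all 24 libraries together. The sources used here do not state whether counting used strand, so reads of the 2 genes may not have been told apart.

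Among the delayed rectifiers, Kcnh2 ranged from 5.38 to 13.1 CPM with a median of 6.99 in normoxia TAC mice, against 10.998 to 29.3 CPM with a median of 20.1 in normoxia sham mice. All but 1 of the 6 TAC mice lay below the lowest sham mouse. Kcnh2 fell by 1.32 ± 0.29 log2 units (adjusted p = 0.00235), to 0.402 times the sham level, the largest fall among the 9 genes in this comparison. With limma voom and group weights the adjusted p was 0.0591, in a range of 8.92e-05 to 0.0591 over 8 alternative settings.

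Kcnv2, the Kv2 modifier, had 3.55 to 18.05 CPM with a median of 5.02 in normoxia TAC mice, and 13.4 to 17.9 CPM with a median of 15.9 in normoxia sham mice. Of the TAC mice, 5 lay below every sham mouse and 1 lay above every sham mouse. Its log2 change of -0.98 ± 0.36 passed narrowly (adjusted p = 0.0460). The call was kept in 8 of 24 fits that left out 1 library. It was lost without any normoxia sham or hypoxia sham mouse, or without normoxia TAC mouse 2, 3, 4 or 6, with adjusted p between 0.0508 and 0.106. Kcna5 was not called, with medians of 36.4 CPM in normoxia TAC mice (29.2 to 45.0) and 37.6 CPM in normoxia sham mice (26.4 to 49.0). Its log2 change was -0.05 ± 0.16, with a 95% interval of -0.38 to 0.27 (t distribution with 20 degrees of freedom).

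Among the inward rectifiers, Kcnj2 ranged from 6.34 to 13.3 CPM with a median of 9.45 in normoxia TAC mice, against 15.3 to 22.9 CPM with a median of 20.2 in normoxia sham mice. It was the only one of the 9 genes whose TAC and sham values did not overlap in normoxia, and in hypoxia there was none. Of all genes tested, 3.86% lay lower without overlap after normoxia TAC and 3.36% after hypoxia TAC. Kcnj2 fell by 1.03 ± 0.20 log2 units (adjusted p = 0.00105), and this call also held in all 8 alternative settings. The normoxia TAC level was 0.490 times the sham level.

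Kcnj3 had 11.8 to 58.7 CPM with a median of 37.9 in normoxia TAC mice, and 49.3 to 67.2 CPM with a median of 62.4 in normoxia sham mice. It fell by 0.73 ± 0.24 log2 units (adjusted p = 0.0268), with 5 of 6 TAC mice below every sham mouse. The call was lost without normoxia sham mouse 5 (adjusted p = 0.0507), normoxia TAC mouse 3 (0.0602) or normoxia TAC mouse 4 (0.0529). Kcnj3 shares 1621 exon bases with Gm26794, annotated on the opposite strand, and the same limit on strand applies. Unlike Kcnd3os, Gm26794 has no row under that name in the deposited count table. Whether its reads were counted as Kcnj3 is not known.

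Kcnj11 had 24.6 to 59.8 CPM with a median of 46.4 in normoxia TAC mice, and 55.6 to 65.6 CPM with a median of 63.0 in normoxia sham mice. All but 1 of the TAC mice lay below every sham mouse, and Kcnj11 fell by 0.51 ± 0.17 log2 units (adjusted p = 0.0299). The call was lost without normoxia sham mouse 6 (adjusted p = 0.0541), or normoxia TAC mouse 2 (0.0600), 3 (0.0547) or 4 (0.0801). In a fit of the 12 normoxia libraries alone, Kcnj3, Kcnj11 and Kcnv2 no longer passed (adjusted p = 0.0659, 0.0746 and 0.0681).

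Other cell types moved in the same comparison. Of 7 macrophage and monocyte markers 6 were called higher after normoxia TAC, and their summed level ranged from 274 to 852 CPM in normoxia TAC mice and 181 to 232 CPM in normoxia sham mice. All 3 neutrophil markers tested of 5 listed were called higher, with sums of 5.62 to 64.4 CPM in normoxia TAC mice and 0.828 to 3.12 CPM in normoxia sham mice. Endothelial markers were called lower in 3 of 7 genes, with sums of 555 to 649 CPM in normoxia TAC mice and 729 to 828 CPM in normoxia sham mice. Resident fibroblast markers were called higher in 2 of 7 genes, and pericyte and smooth muscle markers higher in 2 and lower in 1 of 7. Of 2 markers tested in each list, 1 atrial marker and 1 nerve and glia marker were called higher. Of the 14 cardiomyocyte markers 1 was called, Myh6, the adult myosin heavy chain, at -0.85 ± 0.12 (adjusted p = 0.000102). The part of these shifts in the channel results was not tested. With libraries scaled to the cardiomyocyte markers, Kcnh2, Kcnj2 and Kcnj3 were still called, and Kcnj11 (adjusted p = 0.0594) and Kcnv2 (0.0839) were not.

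**Figure D2:**
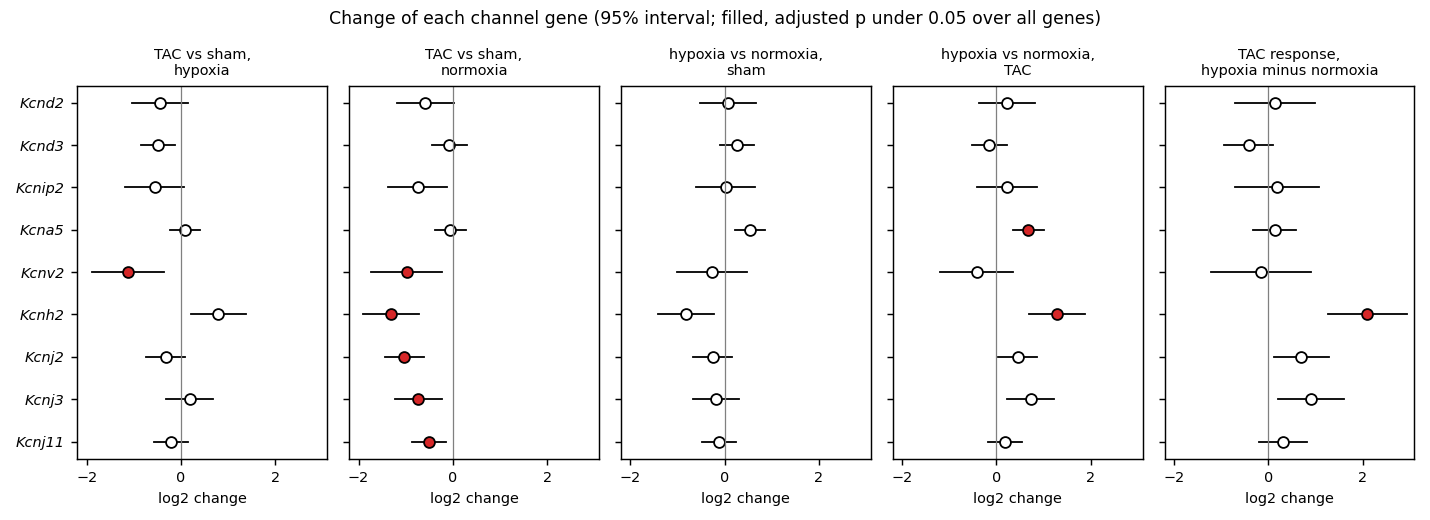
Log2 change of each of the 9 genes (rows) with its 95% interval, in the comparisons named above the panels. In normoxia TAC against sham all 9 estimates lie below 0 (Kcnd3 and Kcna5 at 0.08 when scaled to cardiomyocyte markers), while Kcnh2 has -1.32 in normoxia and 0.79 in hypoxia.

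The second question is how TAC changed the same genes in hypoxia. Only Kcnv2 was called among the 9 genes, lower, and none was called higher, where 4.68% of all genes tested were called lower and 6.46% higher. The log2 change was below 0 for 6 of the 9, with a median of -0.33 against 0.01 over all genes tested. Kcnh2, Kcna5 and Kcnj3 had estimates above 0.

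Kcnv2 had 2.46 to 13.2 CPM with a median of 4.07 in hypoxia TAC mice, against 11.6 to 14.2 CPM with a median of 13.2 in hypoxia sham mice. It fell by 1.13 ± 0.37 log2 units (adjusted p = 0.0484), with 5 of 6 TAC mice below every sham mouse. The call was kept in 7 of 24 fits that left out 1 library. It was lost without any normoxia sham or hypoxia sham mouse, without normoxia TAC mouse 6, or without hypoxia TAC mouse 2, 3, 5 or 6, with adjusted p between 0.0503 and 0.122.

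Kcnh2 had 10.1 to 25.4 CPM with a median of 21.4 in hypoxia TAC mice, and 6.25 to 19.997 CPM with a median of 11.4 in hypoxia sham mice. Of the TAC mice 3 lay above every sham mouse, and the log2 change of 0.79 ± 0.28 did not pass (adjusted p = 0.0668). It passed without hypoxia sham mouse 5 (1.03, adjusted p = 0.0270) or hypoxia TAC mouse 6 (0.93, adjusted p = 0.0393), and with DESeq2 (adjusted p = 0.0346, in a range of 0.0346 to 0.121 over 8 alternative settings).

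The Kv4 genes had lower medians after TAC in hypoxia too, with no call by edgeR. Kcnip2 had 13.9 to 67.0 CPM with a median of 39.2 in hypoxia TAC mice, and 49.6 to 61.6 CPM with a median of 58.0 in hypoxia sham mice (log2 change -0.56 ± 0.30, adjusted p = 0.219). With limma voom Kcnip2 was called (-0.77, adjusted p = 0.0288, in a range of 0.0288 to 0.371 over 8 alternative settings). Kcnd2 had 10.1 to 48.6 CPM with a median of 26.1 in hypoxia TAC mice, and 33.7 to 40.6 CPM with a median of 35.3 in hypoxia sham mice (-0.44 ± 0.28, adjusted p = 0.314). For both genes the TAC values ran beyond the sham range at both ends, with 1 TAC mouse above every sham mouse. Kcnd3 had 3.45 to 7.08 CPM with a median of 5.16 in hypoxia TAC mice, and 5.69 to 9.96 CPM with a median of 7.43 in hypoxia sham mice. Its log2 change was -0.49 ± 0.17 (adjusted p = 0.0660), and it passed without hypoxia TAC mouse 4 (-0.56, adjusted p = 0.0373) and with DESeq2 (adjusted p = 0.0447, in a range of 0.0447 to 0.464 over 8 alternative settings).

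Of the inward rectifiers, Kcnj2 had 6.26 to 18.5 CPM with a median of 14.9 in hypoxia TAC mice, and 14.5 to 20.1 CPM with a median of 16.7 in hypoxia sham mice (log2 change -0.33 ± 0.20, adjusted p = 0.273). Kcnj11 had 31.4 to 63.9 CPM with a median of 49.8 in hypoxia TAC mice, and 54.1 to 64.5 CPM with a median of 55.1 in hypoxia sham mice (-0.21 ± 0.17, adjusted p = 0.442). Neither passed, though 3 TAC mice for Kcnj2 and 4 for Kcnj11 lay below every sham mouse. Kcnj3 split in both directions, with 33.3 to 83.3 CPM and a median of 63.9 in hypoxia TAC mice against 51.0 to 56.3 CPM and a median of 53.5 in hypoxia sham mice. For Kcnj3, 4 TAC mice lay above and 2 below every sham mouse (0.18 ± 0.24, adjusted p = 0.645). Kcna5 had medians of 60.4 CPM in hypoxia TAC mice (38.6 to 72.5) and 53.1 CPM in hypoxia sham mice (43.7 to 66.5), with a log2 change of 0.09 ± 0.15 (adjusted p = 0.741).

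Of the 7 macrophage and monocyte markers 0 were called by edgeR, DESeq2 or limma voom after hypoxia TAC, with 2 at an unadjusted p under 0.05. The sums of the 7 markers ranged from 188 to 564 CPM in hypoxia TAC mice and 226 to 309 CPM in hypoxia sham mice. Of 3 neutrophil markers tested 1 was called higher, and of 7 endothelial markers 2 were called lower. Cardiomyocyte markers gave 2 calls higher and 1 lower, the lower one being Ttn, the giant sarcomere protein, at -0.61 ± 0.09 (adjusted p = 0.000967).

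The third question is whether hypoxia alone was followed by a change, comparing sham mice. None of the 9 genes was called, where 0.0799% of all genes tested were called lower and 0.0865% higher by edgeR. At an unadjusted p under 0.05 there were 2, Kcna5 and Kcnh2, where 8% of all genes tested had such a p. DESeq2 called 0 of the 9, where it called 49 of all genes tested lower and 47 higher. Limma voom with group weights called both Kcna5 and Kcnh2, where it called 588 of all genes tested lower and 767 higher. Kcna5 had a median of 53.1 CPM in hypoxia sham mice against 37.6 CPM in normoxia sham mice, with 4 of 6 hypoxia mice above every normoxia mouse. The log2 change was 0.54 ± 0.16 (adjusted p = 0.222). In a fit of the 12 sham libraries alone Kcna5 was called (adjusted p = 0.0318), where 711 of 14409 genes were called lower and 947 higher. Its adjusted p ranged from 0.00462 to 0.978 over 8 alternative settings. Kcnh2 had a median of 11.4 CPM in hypoxia sham mice against 20.1 CPM in normoxia sham mice (-0.82 ± 0.28, adjusted p = 0.351). Hypoxia sham mice lay below every normoxia sham mouse for Kcnh2 in 3 of 6 cases. The other 7 genes had log2 changes from -0.27 (Kcnv2) to 0.26 (Kcnd3). The summed level of 7 endothelial markers was 891 to 1056 CPM in hypoxia sham mice and 729 to 828 CPM in normoxia sham mice, without overlap. Of these markers edgeR called 0, with 4 at an unadjusted p under 0.05, DESeq2 called 2 and limma voom 4. Their part in the channel results was not tested.

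The fourth question compares hypoxia with normoxia among TAC mice. Kcnh2 and Kcna5 were called higher and none of the 9 lower, where 6.41% of all genes tested were called lower and 4.66% higher. Kcnh2 had medians of 21.4 CPM in hypoxia TAC mice and 6.99 CPM in normoxia TAC mice, a log2 change of 1.28 ± 0.29 (adjusted p = 0.00817). Kcna5 had medians of 60.4 CPM in hypoxia TAC mice and 36.4 CPM in normoxia TAC mice, a log2 change of 0.68 ± 0.16 (adjusted p = 0.00910). For each of these genes 5 of 6 hypoxia TAC mice lay above every normoxia TAC mouse.

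Both calls held in all 24 fits that left out 1 library. In a fit of the 12 TAC libraries alone the adjusted p was 0.109 for Kcnh2 and 0.125 for Kcna5, and with limma voom it was 0.256 and 0.185. That fit of the TAC libraries called 0 of all 14267 genes tested lower and 0 higher. Limma voom called 74 of 15027 genes lower and 18 higher. With libraries scaled to cardiomyocyte markers, Kcna5 was not called either (0.63, adjusted p = 0.0799). Over 8 alternative settings it ranged from 0.000384 to 0.256 for Kcnh2 and from 0.00134 to 0.185 for Kcna5. For Kcna5 the estimate between the sham groups was 0.54 (adjusted p = 0.222, not called). The difference of its 2 TAC responses was 0.14 ± 0.22 (adjusted p = 0.755), with a 95% interval of -0.32 to 0.60.

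Kcnj3 missed the threshold narrowly, with a log2 change of 0.73 ± 0.24 (adjusted p = 0.0502) and 4 of 6 hypoxia TAC mice above every normoxia TAC mouse. It passed in 6 of 24 fits that left out 1 library, those without normoxia TAC mouse 1 (adjusted p = 0.0158), 2 (0.0473), 5 (0.0481) or 6 (0.0465), or hypoxia TAC mouse 2 (0.0160) or 3 (0.0411). Kcnj3 also passed by total counts (adjusted p = 0.0324), with cardiomyocyte scaling (0.0425) and with DESeq2 (0.0253), in a range of 0.0253 to 0.264 over 8 alternative settings. Kcnj2 had a log2 change of 0.45 ± 0.20 (adjusted p = 0.150), which passed without hypoxia TAC mouse 3 (0.61, adjusted p = 0.0304). Endothelial markers were called higher in 4 of 7 genes in this comparison, pericyte and smooth muscle markers higher in 2 of 7, and macrophage and monocyte markers lower in 2 of 7. Their part in the channel results was not tested.

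The design also allows a test of whether the TAC response differed between hypoxia and normoxia. Kcnh2 was the only one of the 9 genes called, where 0.925% of all genes tested were called lower and 1.12% higher. Its TAC response was 2.10 ± 0.40 log2 units higher in hypoxia than in normoxia (adjusted p = 0.0173), from a response of 0.79 in hypoxia and -1.32 in normoxia. The call held in all 24 fits that left out 1 library, and in 6 of 7 alternative settings. With limma voom and group weights the value was 2.14 (adjusted p = 0.0594). The 4 means were 20.03 ± 6.05 CPM after hypoxia TAC, 11.6 ± 5.06 after hypoxia sham, 8.17 ± 3.05 after normoxia TAC and 20.4 ± 6.17 after normoxia sham (SD, n = 6 each). The means of hypoxia sham and normoxia TAC mice lay below those of the other two groups.

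No other member passed this test. Kcnj3 had a difference of 0.91 ± 0.34 (adjusted p = 0.127) and Kcnj2 one of 0.70 ± 0.28 (adjusted p = 0.153). For Kcnv2 the difference was -0.15 ± 0.51, with a 95% interval of -1.21 to 0.91, and for Kcnip2 it was 0.19 ± 0.43, with an interval of -0.70 to 1.08. These intervals span changes of more than 1 log2 unit in total and do not show that the responses were alike.

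Genes of the circadian clock and cardiac transcription factors were examined beside Kcnh2, because the hours of killing are not in the labels. Of the 8 factor genes listed, all tested, 2 were called higher and 2 lower after normoxia TAC, and 1 higher and none lower after hypoxia TAC. Arntl (BMAL1), the clock activator, had medians of 23.5 CPM in hypoxia TAC mice, 45.3 CPM in hypoxia sham mice, 19.2 CPM in normoxia TAC mice and 11.1 CPM in normoxia sham mice. It was higher in hypoxia sham than in normoxia sham mice by 1.88 ± 0.36 (adjusted p = 0.0291). In normoxia TAC mice it was higher than in sham mice by 0.99 ± 0.36 (adjusted p = 0.0436), and the difference of its TAC responses was -1.96 ± 0.50 (adjusted p = 0.0440). Clock, its partner, rose after normoxia TAC by 0.64 ± 0.14 (adjusted p = 0.00224), and Nr1d1 (REV-ERBα), a clock repressor, fell by 0.76 ± 0.21 log2 units (adjusted p = 0.0112).

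Irx3, a homeobox factor of the ventricular conduction system, was called in both TAC comparisons, in opposite directions. It fell after normoxia TAC (log2 change -0.57 ± 0.17, adjusted p = 0.0154) and rose after hypoxia TAC (0.65 ± 0.17, adjusted p = 0.0176). The difference of its TAC responses was 1.22 ± 0.24 (adjusted p = 0.0173). Klf15, a Kruppel-like factor with a daily rhythm, had a log2 change of -0.65 ± 0.30 after normoxia TAC (adjusted p = 0.104) and of 0.77 ± 0.29 after hypoxia TAC (adjusted p = 0.0824). Klf15 was higher in hypoxia TAC than in normoxia TAC mice by 1.34 ± 0.30 (adjusted p = 0.00797). Etv1, Hey2 and Irx5 were not called in any of the 5 comparisons. The part of the clock, the hour of killing or any of these factors in the channel results was not tested.

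**Figure D3:**
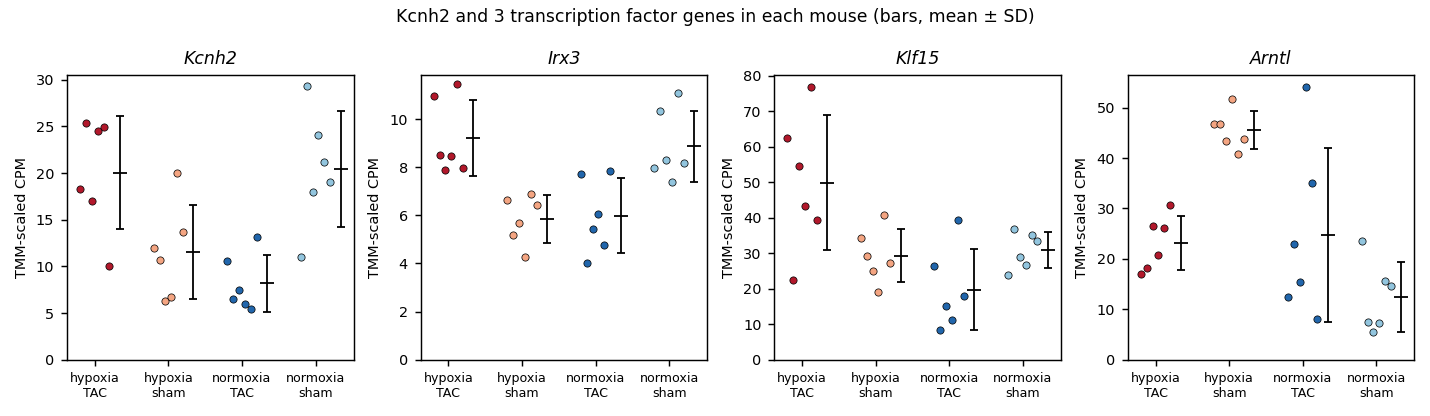
Level in TMM-scaled CPM (vertical axis) of Kcnh2, Irx3, Klf15 and Arntl in each mouse by group (horizontal axis), with mean ± SD of 6 mice. Kcnh2 and Irx3 have higher means in hypoxia TAC and normoxia sham mice than in the other two groups, while the mean of Arntl is highest in hypoxia sham mice, between 40.8 and 51.8 CPM.

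The SD in CPM among TAC mice exceeded that among sham mice for 8 of the 9 genes in hypoxia and for 5 of the 9 in normoxia. The share of all genes with a larger SD in TAC mice was not computed. These SDs were not set against the means, which differed between groups. In normoxia, Kcnj2 had 9.87 ± 2.44 CPM after TAC and 20.1 ± 2.71 after sham, and Kcnh2 had 8.17 ± 3.05 and 20.4 ± 6.17. In normoxia TAC, mouse 2 was the lowest of its group for 5 of the 9 genes and mouse 1 the highest for 6. In hypoxia TAC, mouse 3 was the lowest for 6 of the 9 genes and mouse 4 the highest for 5. The number of the 9 genes below every sham mouse of the same oxygen condition differed between TAC mice. In normoxia TAC it was 7 in mice 2, 3 and 4, 6 in mice 5 and 6, and 3 in mouse 1. In hypoxia TAC it was 7 in mice 2 and 3, 5 in mouse 1, 4 in mice 5 and 6, and 0 in mouse 4. The share of all genes lying so low was not computed for single mice. Summed cardiomyocyte markers also spread more widely in TAC mice, and their part was not tested.

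**Figure D4:**
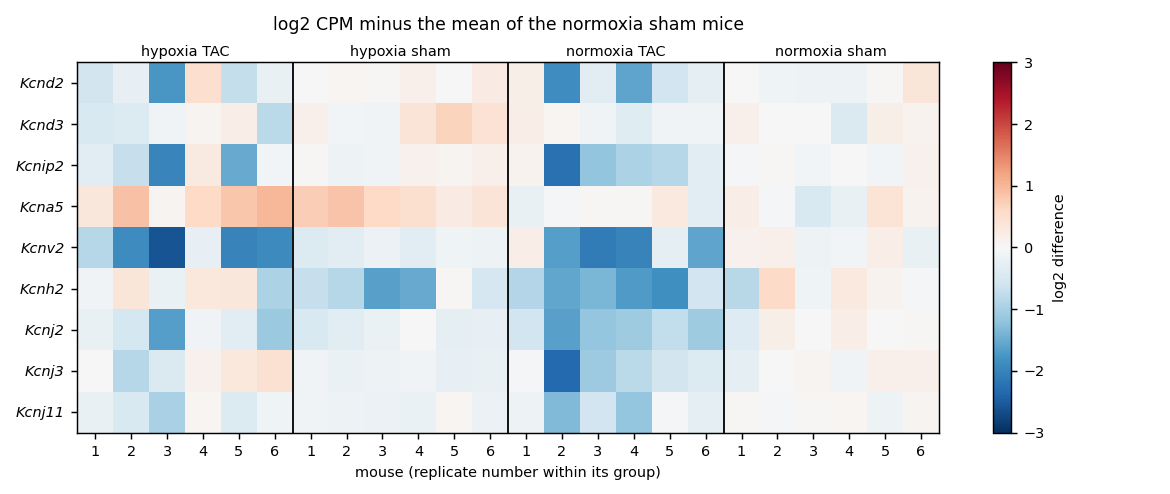
Log2 CPM of each of the 9 genes (rows) in each mouse (columns, in blocks by group) minus the mean of the normoxia sham mice, as colour from -3 to 3. Kcnd2, Kcnip2, Kcnv2, Kcnh2, Kcnj2, Kcnj3 and Kcnj11 are low together in normoxia TAC mouse 2, while Kcnd3 and Kcna5 are not.

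Deviations from the group means over the 24 libraries, in log2 CPM, describe which members varied together. Pearson's r was 0.86 between Kcnd2 and Kcnj11, 0.84 between Kcnd2 and Kcnip2, and 0.79 between Kcnip2 and Kcnj11. Kcnh2 had its highest r among the 9 with Kcnd3, at 0.43, and 0.16 with Kcnip2. Kcna5 had r of at most 0.20 with any of the other 8. All values come from the same 24 libraries and share their scaling, so they are descriptions without a test.

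Among tested genes averaging 1 CPM or more, those whose deviations were most like those of a member were found in the same way. For Kcnh2 they were Lipt2 (r = 0.89, Spearman's rho = 0.90), Ppp1r14c (0.87 and 0.85) and Fam3c (0.86 and 0.82). For Kcnd2 they were L3hypdh (0.96 and 0.86), Eno3 (0.93 and 0.71) and Mtfp1 (0.93 and 0.81), and for Kcnip2 Pts (0.95 and 0.73), Cmss1 (0.94 and 0.61) and Trmt2b (0.93 and 0.77). The first gene was Slc49a4 for Kcnj2 (r = 0.87), Oxr1 for Kcnj3 (0.95), Smco1 for Kcnj11 (0.95) and H2-K2 for Kcnv2 (0.91). Kcnd3 and Kcna5 had no such close gene, with Frat1 at 0.75 and Tram2 at 0.67.

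Nppb, the gene of brain natriuretic peptide and a marker of wall stress, ranged from 19.1 to 578 CPM in hypoxia TAC mice and 174 to 2518 CPM in normoxia TAC mice. In hypoxia sham mice it ranged from 93.8 to 156 CPM and in normoxia sham mice from 23.3 to 54.1 CPM. Its log2 change after TAC was 4.51 ± 0.71 in normoxia (adjusted p = 0.000251) and 0.87 ± 0.62 in hypoxia (adjusted p = 0.363). The difference of its TAC responses was -3.65 ± 0.89 (adjusted p = 0.0406). The part of this difference in the channel results was not tested. Whether a member followed Nppb was examined within each TAC group of 6 mice, 18 relations in all, by exact permutation tests. With 720 pairings of 6 mice and 18 relations, a single rho could not pass even at its extreme, so rho decides nothing here. None passed adjustment for either coefficient. The closest was Kcnv2 in normoxia TAC mice, with r = -0.93 (exact two-sided p = 0.00556, adjusted p = 0.1) and rho = -0.89 (exact p = 0.0333, adjusted p = 0.6). In hypoxia TAC mice the same gene had r = -0.38 (exact p = 0.45) and rho = -0.20 (exact p = 0.714). Without the 2 mice farthest from the median Nppb, which leaves 4 mice, r for Kcnv2 was -0.94 in each TAC group. In hypoxia TAC mice Kcnv2 was not alone, with Kcnd2 at -0.98, Kcnj11 at -0.96, Kcnip2 at -0.95 and Kcnj2 at -0.91. The remaining members there ran from -0.66 (Kcnj3) to -0.10 (Kcnd3). In normoxia TAC mice the members other than Kcnv2 ran from -0.61 (Kcna5) to 0.58 (Kcnh2). These values from 4 mice were not tested.

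The partners of the members were read from a list of 66 other potassium channel genes, of which 31 passed the filter. After normoxia TAC 9 of the 31 were called lower and 2 higher, and after hypoxia TAC 2 were called lower and 1 higher. The median log2 change over the 31 was -0.17 in normoxia and -0.03 in hypoxia. Among voltage-gated pore genes, Kcna7 (-0.98 ± 0.30, adjusted p = 0.0172) fell after normoxia TAC. Kcne4, an accessory subunit that inhibits several voltage-gated channels, rose in both conditions, by 1.92 ± 0.34 in normoxia (adjusted p = 0.000580) and by 1.34 ± 0.34 in hypoxia (adjusted p = 0.0165).

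Inward rectifier partners of the members were among the genes that fell after normoxia TAC. Kcnj12 (Kir2.2), which forms channels with Kcnj2, fell by 0.43 ± 0.14 log2 units (adjusted p = 0.0218), less than Kcnj2 did. Kcnj5 (GIRK4), the partner of Kcnj3, fell by 0.75 ± 0.21 log2 units (adjusted p = 0.0118). Of the sulphonylurea receptors that surround Kcnj11, Abcc9 (SUR2) fell by 0.67 ± 0.14 log2 units (adjusted p = 0.00166) and Abcc8 (SUR1) fell by 0.56 ± 0.20 log2 units (adjusted p = 0.0414). In hypoxia Abcc9 fell too (log2 change -0.58 ± 0.14, adjusted p = 0.0120), while Kcnj12, Kcnj5 and Abcc8 had values of 0.28, 0.01 and -0.45 and were not called.

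Of the other classes, the potassium leak channel Kcnk3 (-0.30 ± 0.10, adjusted p = 0.0317) and the calcium-activated channel Kcnn2 (-0.95 ± 0.32, adjusted p = 0.0316) fell after normoxia TAC. The sodium-activated channel Kcnt2 rose by 0.80 ± 0.19 (adjusted p = 0.00351). Between hypoxia TAC and normoxia TAC mice, Kcnj12 (0.48 ± 0.14, adjusted p = 0.0266), Kcnj5 (0.65 ± 0.21, adjusted p = 0.0474) and Kcnk3 (0.40 ± 0.10, adjusted p = 0.0174) were higher in hypoxia, and Kcnk7 was lower (-0.69 ± 0.20, adjusted p = 0.0278). For the difference between the TAC responses, edgeR called 0 of the 31 and limma voom 0. At an unadjusted p under 0.05 by edgeR there were 8 of the 31, where 3171 of all 15027 genes had such a p. DESeq2 called 2 of the 31, where it called 448 of all genes lower and 471 higher. Kcnj12 had 0.71 ± 0.19 in that comparison by edgeR (adjusted p = 0.0514). Between the sham groups edgeR and DESeq2 called 0 of the 31 and limma voom 1. By edgeR 1 had an unadjusted p under 0.05, where 8% of all genes tested had such a p.

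**Figure D5:**
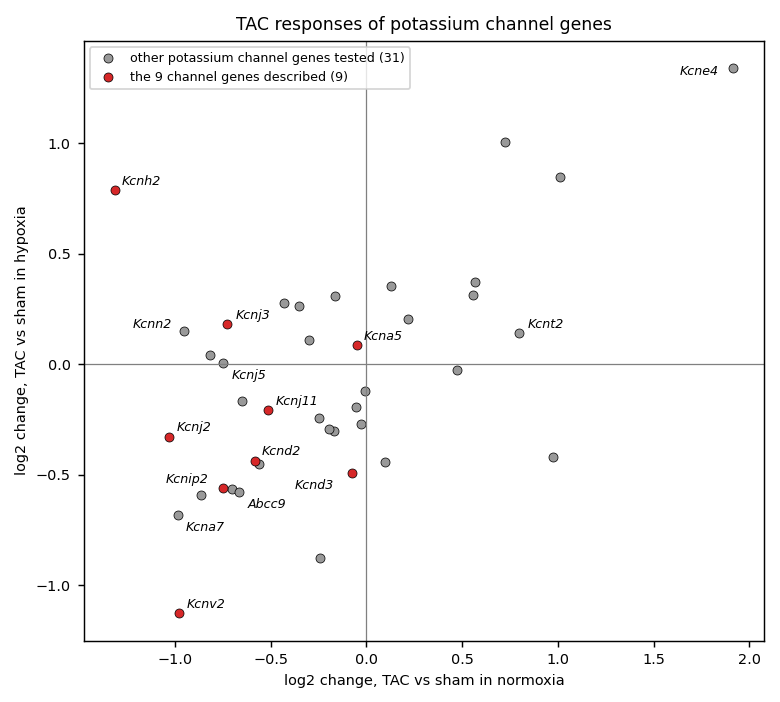
Log2 change after TAC in hypoxia (vertical axis) against that in normoxia (horizontal axis) for the 9 genes in red and 31 other potassium channel genes in grey, as estimates without error bars. Kcnh2 stands at -1.32 in normoxia and 0.79 in hypoxia, Kcnv2 is low in both, and Kcne4 is high in both.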

How the data were processed

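Per the labels' protocols, 100 ng of apex RNA entered a single-cell and low-input library kit for RNA-seq. The authors deposited 1 table of raw counts per gene for 24 libraries. bcl2fastq 2.20.0.422, STAR 2.7.3a, featureCounts from Subread 2.0.0 and GRCm39 are named in the submitters' processing notes, and the strand setting and annotation are not given in the sources used here. Columns were tied to mice by library number and groups taken from the sample titles. The 9 genes, the gene lists and the rule for named genes (all 9 genes, at most 4 called genes per list and comparison by smallest p, all listed transcription factors, and the 3 genes most like each member) were chosen with earlier results of these data known. Some called genes of the lists are not reported here.

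Genes with low counts were removed with filterByExpr (minimum count 10, minimum total 15), leaving 15027 of 40840 rows and 99.9% of counts. edgeR 4.0.16 (R 4.3.3) fitted 1 mean per group to all libraries, with TMM scaling, robust quasi-likelihood and a common biological coefficient of variation of 0.241. The script was tested on simulated data. Alternatives were other scalings, no filter, DESeq2 1.42.0, limma 3.58.1 voom with group weights, a fit of only the groups compared, a replicate block and leaving out each library. Log2 CPM used a prior count of 2. No 2 of the 276 pairs of libraries were identical, and the lowest chi-square per degree of freedom was 3.42. Depth of 10136915 to 15058159 counts gave Kcnd3 between 41 and 117 counts per library. Protein sequences were not used here.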

Additional observations from a re-analysis of the deposited data

Results flagged for a closer look

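The TAC response of Kcnh2 differed between hypoxia and normoxia by 2.10 log2 units, tested as an interaction term (adjusted p = 0.0173, edgeR's quasi-likelihood test).

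In 3 of the 36 sets of 6 mice (9 genes in 4 groups), 1 mouse stood apart from the rest by Dixon's criterion at the 95% level, where chance gives about 1 set in 20. Normoxia sham mouse 6 had 44.4 CPM of Kcnd2, the highest of its group. Normoxia sham mouse 4 had 4.48 CPM of Kcnd3, the lowest of its group. Hypoxia sham mouse 5 had 64.5 CPM of Kcnj11, the highest of its group.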

How the results depend on the processing

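The count of members called after normoxia TAC, 5, became 3 with cardiomyocyte scaling or with no low-count filter and 2 with only the groups compared. It rose to 6 by DESeq2, with Kcnip2 gained, and Kcnip2 was gained by total counts too (adjusted p = 0.0392). By voom it stayed at 5, with Kcnip2 gained and Kcnh2 lost. It ran from 2 to 7 when 1 library was left out. After hypoxia TAC the count, 1, became 0 by total counts, with cardiomyocyte scaling or with no filter, 3 by DESeq2 and 2 by limma voom, and ran from 0 to 2 without 1 library. Between sham groups the count, 0, became 2 by voom and 1 with only the groups compared. Between TAC groups the count, 2, became 0 by voom, 0 with only the groups compared and 3 by total counts or DESeq2, and ran from 2 to 4 without 1 library. With cardiomyocyte scaling it was 2, with Kcnj3 gained and Kcna5 lost. For the difference of TAC responses the count, 1, became 0 by voom only and stayed at 1 without any 1 library. Over all 6 mice of a group, no relation to Nppb passed by r with another scaling or prior count. Without 1 mouse a group is too small for any single relation in it to pass, so such fits say nothing about stability. The cause of these shifts was not tested, except that the fit without the filter tested 28942 genes and fits without 1 library or of 2 groups had fewer samples.

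Estimates that changed sign were uncalled in both fits. With cardiomyocyte scaling Kcnd3 and Kcna5 stood at 0.0768 and 0.0770 after normoxia TAC and Kcnip2 at -0.0301 between sham groups. Without 1 library, Kcna5 ran from -0.13 to 0.0422 after normoxia TAC and Kcnip2 from -0.00016 to 0.0580 between sham groups. Between TAC groups Kcnv2 ran from -0.81 to 0.0049, Kcnd2 from -0.0359 to 0.43 and Kcnip2 from -0.0196 to 0.47. For the difference of TAC responses Kcnv2 ran from -0.54 to 0.27, Kcnd2 from -0.11 to 0.36 and Kcnip2 from -0.0444 to 0.44.

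Cardiomyocyte scaling moved the median log2 change of all genes to 0.14 after normoxia TAC and 0.16 after hypoxia TAC, and total counts moved it to -0.11 after normoxia TAC. After normoxia TAC all genes were split 1593 lower and 2521 higher in the analysis reported, 2450 and 1629 by total counts, and 622 and 2374 with cardiomyocyte scaling. After hypoxia TAC the split was 703 lower and 971 higher, against 114 and 738 with cardiomyocyte scaling. Between TAC groups it was 963 lower and 700 higher, against 429 and 1050 by total counts. There it was 74 and 18 by voom, and 0 and 0 with only the groups compared. For the difference of TAC responses it was 139 lower and 169 higher, against 50 and 189 by total counts and 9 and 30 with cardiomyocyte scaling. Between sham groups it was 12 lower and 13 higher, against 10 and 3 with cardiomyocyte scaling, and a fit of the 12 sham libraries alone called 711 lower and 947 higher.

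The replicate numbers share no stated pairing. Of 36 same-numbered pairs of libraries 5 had deviations correlated above 0.1, and 4 of 24 libraries matched their own number best. A fit with the replicate number as a block called 6 members after normoxia TAC, 1 after hypoxia TAC, 0 between sham groups, 3 between TAC groups and 1 for the difference of TAC responses. The 2 added calls were Kcnip2 (-0.85, adjusted p = 0.0314) and Kcnj3 (0.76, adjusted p = 0.0349).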
